A study of Mus musculus with 6 samples.

Results

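The mitochondrial ribosomal protein genes were taken as every gene symbol of the raw count table that starts with Mrpl or Mrps followed by a digit, leaving out symbols that contain -ps. The rule uses names only and no measured value. It found 78 of the 15528 listed symbols, 49 starting with Mrpl and 29 starting with Mrps, and 0 symbols were left out for -ps. By the structure of the mammalian mitochondrial ribosome, 51 of these genes code for proteins of the large subunit and 26 for proteins of the small subunit. Mrps30 and Mrps18a are named for the small subunit but belong to the large one, and Mrps36 is now assigned to the 2-oxoglutarate dehydrogenase complex and was counted in neither.

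The RNA came from mouse cells that the labels call lymphatic endothelial cells, the lining cells of lymphatic vessels, in a study of brain injury after subarachnoid bleeding. There were 3 libraries of control cells and 3 of cells given red blood cells (RBC), all labelled 24 h, and the labels name no strain, age, genotype or further agent for either group. Whether replicates are separate cultures is not said, so a p-value is measured against a spread between libraries that may be purely technical. Because each library is a bulk sample, fewer cells of a type and less RNA per cell cannot be told apart.

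Mitochondria carry their own ribosome, which resembles that of bacteria more than that of the surrounding cytosol. It translates the few messenger RNAs of the mitochondrial genome, all of which code for subunits of the respiratory chain and the ATP synthase. Its ribosomal RNAs come from the mitochondrial genome, but every one of its proteins is encoded in the nucleus, made in the cytosol and imported. Part of the proteins have counterparts in bacterial ribosomes, and the others were added during the evolution of mitochondria.

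Depth was even, from 17263359 counts in control replicate 1 to 18381419 in control replicate 2. Over all genes, control replicate 2 was unlike the rest. Its counts differed from those of the other controls by a chi-square of 28.2 and 26.8 per gene, against 1.99 between control replicates 1 and 3 and 1.73 to 2.13 between RBC libraries. The results below are therefore given with all 6 libraries and without that library. Summed levels of 7 erythroid markers were 2.83 to 3.64 CPM (counts scaled to the counts of the library) in the controls and 538 to 623 CPM in the RBC libraries. Of 8 leukocyte markers 7 are listed, with 41.7 to 48.0 CPM in the controls and 48.0 to 52.7 CPM in the RBC libraries. The lymphatic label rests on few of its markers. The defining markers Prox1 and Lyve1 are not among the 5 of 8 that are listed, and Nr2f2 held 161 of the 164 to 167 CPM of the controls, with 145 to 152 CPM summed in the RBC libraries. Pan-endothelial markers, also 5 of 8, summed to 107 to 119 and 112 to 114 CPM. Over the controls, Eng had 5303 counts and Pecam1 had 802, while Cdh5 had 7, Tek had 3 and Kdr had 0. The part of these cell types in the results was not tested.

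Summed transcripts of the mitochondrial ribosome lay within the range of control replicates 1 and 3 in each RBC library, and above the other 5 libraries in control replicate 2. The 78 genes summed to 4169, 5125 and 4288 CPM in control replicates 1 to 3 and to 4244, 4268 and 4248 CPM in RBC replicates 1 to 3. Control replicate 2 was the high library, and the RBC libraries lay between the other controls. The group values were 4527 ± 521 CPM in the controls and 4253 ± 12.9 CPM with red blood cells (SD, n = 3 each). Both the higher mean and the wide SD of the controls rest on control replicate 2, without which the control value was 4229 ± 84.0 CPM (SD, n = 2). The summed difference was not tested.

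Both subunits showed the same order of libraries at the top. Large subunit transcripts summed to 2872, 3539 and 2949 CPM in the controls and 2932, 2934 and 2927 CPM in the RBC libraries. For the small subunit the sums were 1274, 1564 and 1318 CPM and 1291, 1312 and 1301 CPM. The ratio of large to small subunit transcripts stayed between 2.24 and 2.27 in the 6 libraries, control replicate 2 included at 2.26.

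**Figure D1:**
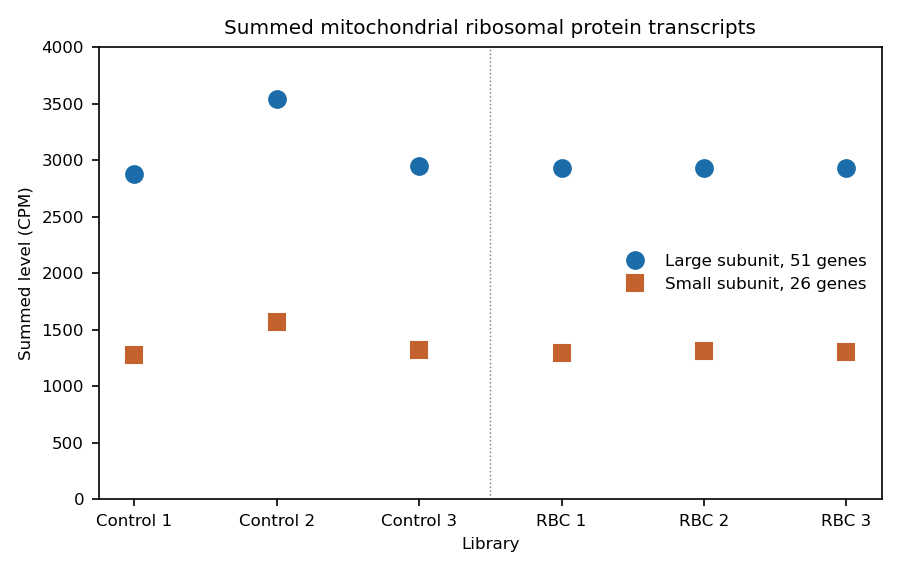
Summed CPM (y axis, from 0) of the 51 large and the 26 small subunit genes in each of the 6 libraries (x axis), 1 point for each library and subunit. Control replicate 2 lies at 3539 and 1564 CPM, and the other 5 libraries lie within 2872 to 2949 and 1274 to 1318 CPM.

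With all 6 libraries, none of the 78 genes was called by edgeR's quasi-likelihood test at an adjusted p under 0.05, where 1.46% of the 11208 genes tested were called. DESeq2 and limma voom also called 0 members. At an unadjusted p under 0.05, edgeR had 1 member, Mrpl10, against 9.99% of all genes tested. Leaving out 1 library moved that count to 15 without control replicate 1, 8 without control replicate 3, 4 without control replicate 2 and 0 without RBC replicate 1 or 2. On the FPKM values (fragments scaled to gene length and library total), limma called 0 members, where 1.31% of 9976 genes were called, and 2 members had an unadjusted p under 0.05, against 9.99% of the genes. The fitted log2 fold changes (RBC minus control) were negative for 74 of the 78 genes, against 51% of all genes, with a median of -0.10 against -0.003 over all genes.

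The lean to negative values was not seen once control replicate 2 was left out. In that fit 40 members had a negative and 38 a positive log2 fold change, where 50.2% of all genes were negative. Their median was then -0.00062, and the members ranged from -0.12 for Mrpl10 to 0.17 for Mrpl21. The sign differed between the fits for 34 genes, and for 57 the absolute change was smaller without that library. The typical standard error of the members fell as well, from a median of 0.089 with all 6 libraries to 0.055 without control replicate 2. Over all genes tested it also fell, from 0.083 to 0.058.

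The 95% intervals rest on the spread between libraries and were narrower in the fit that left out the discordant control. In the fit without control replicate 2, the 95% intervals of all 78 genes lay between 0.837-fold and 1.24-fold. Each thus lay within 1.25-fold in either direction, as did 75.3% of all genes tested. So did 75 of 76 cytosolic ribosomal protein genes and 78 of 81 tested nuclear genes for respiratory chain subunits. The members' median level was 32.3 FPKM against 10.6 for all genes tested, and the part of level in the interval widths was not tested. With all 6 libraries the bounds widened to 0.681-fold and 1.21-fold, and 45 of the 78 intervals lay within 1.25-fold, against 59.7% of all genes.

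**Figure D2:**
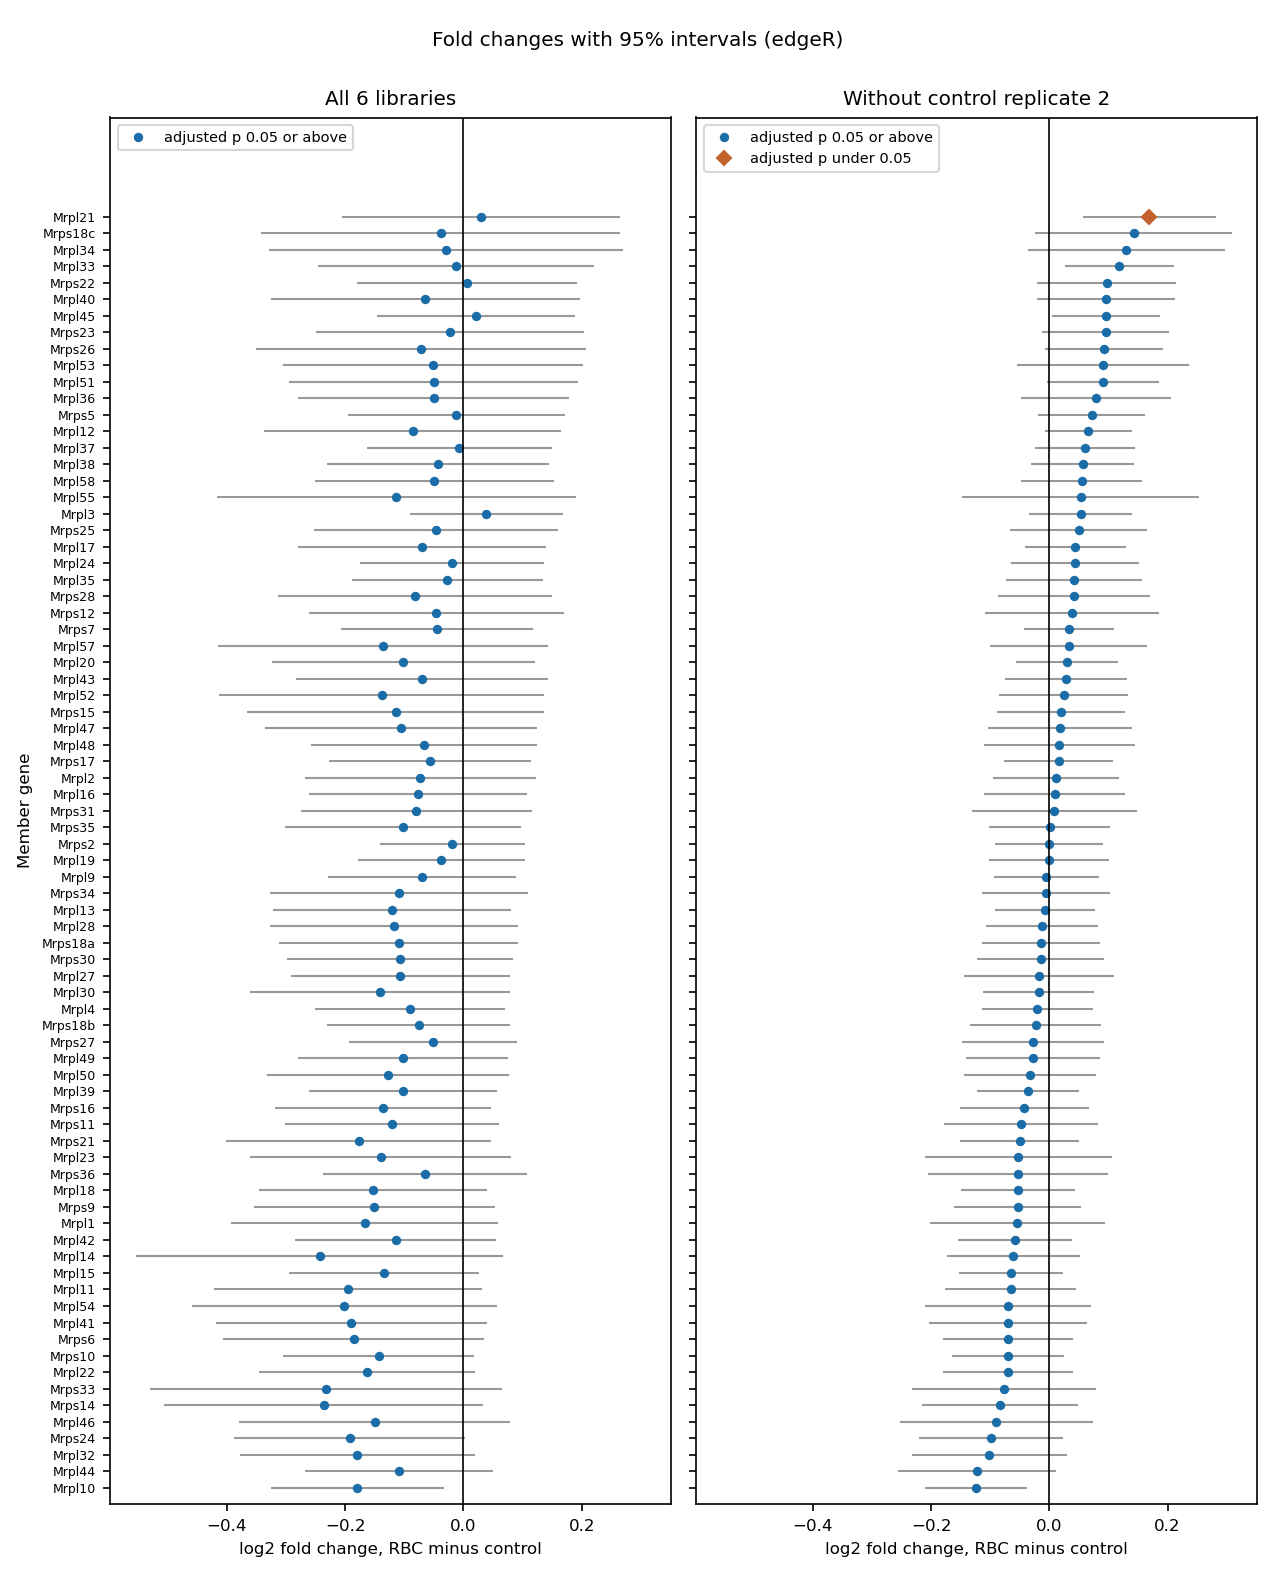
Log2 fold change (x axis, RBC minus control) of each of the 78 genes (y axis) with its 95% interval as a line, with all 6 libraries on the left and without control replicate 2 on the right. On the left 74 points lie below 0 and none passed the threshold; on the right 40 lie below 0, and Mrpl21, drawn as a diamond, passed it.

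Without control replicate 2, 1 member passed the threshold. It was higher with red blood cells, where 4.19% of the 11297 genes tested were called higher and 7.96% were called in either direction. The gene was Mrpl21, which codes for a bacterial-type protein of the large subunit. Its level was 40.3, 50.9 and 37.7 CPM in control replicates 1 to 3 and 44.0, 43.5 and 44.1 CPM in RBC replicates 1 to 3. The RBC libraries lay close together and above control replicates 1 and 3, but below control replicate 2. The log2 fold change was 0.17 ± 0.06 (SE), with a 95% interval from 0.06 to 0.28 and an adjusted p of 0.04995 in edgeR without control replicate 2. With all 6 libraries it was 0.03 ± 0.10 with an adjusted p of 0.92. The call sits at the threshold: without control replicate 2, limma voom gave an adjusted p of 0.0495 and DESeq2 one of 0.33. Leaving out RBC replicate 1, 2 or 3 as well gave 0.11, 0.080 and 0.11 in edgeR. With control replicate 1 or 3 left out as well, the log2 fold change was 0.22 and 0.13.

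Another 3 members had an unadjusted p under 0.05 without control replicate 2, which makes 4 of 78, where 19.4% of all genes had one. With a further library left out there were 2 (RBC replicate 3) to 11 (control replicate 3). Mrpl10 codes for a protein at the base of the stalk on which translation factors land. Its level was 94.9, 105 and 92.3 CPM in the controls and 85.0, 84.8 and 87.8 CPM in the RBC libraries, so that every RBC library lay below every control. The log2 fold change was -0.18 ± 0.06 (SE) with all 6 libraries (edgeR adjusted p 0.37) and -0.12 ± 0.04 without control replicate 2 (adjusted p 0.062). Mrpl33 codes for a small protein of the large subunit. Mrpl33 had 79.6, 103 and 80.7 CPM in the controls and 82.6, 85.4 and 93.1 CPM with red blood cells, above control replicates 1 and 3 in each RBC library. Its log2 fold change without control replicate 2 was 0.12 ± 0.05 (SE), with an adjusted p of 0.11 in edgeR. Mrpl45, whose protein lies at the exit of the tunnel through which new chains leave and anchors the ribosome at the inner membrane, had 71.4, 85.3 and 75.6 CPM in the controls and 76.8, 80.4 and 78.3 CPM in the RBC libraries. Here the change was 0.10 ± 0.05 (SE), with an adjusted p of 0.23 in edgeR without control replicate 2. None of these 3 passed the threshold in either fit.

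A count of genes whose groups did not overlap gave a similar picture. Over the 6 libraries, 5 of the 78 genes had no overlap between the groups, against 19.6% of all genes tested, and all 5 were lower with red blood cells, against 9.19% of all genes. They were Mrpl10, Mrpl15, Mrpl22, Mrps10 and Mrps16. Leaving out control replicate 2, 18 genes did not overlap, where 34.2% of all genes did not, with 13 higher against 17% and the same 5 lower against 17.2%. These counts were near or below those of all genes.

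Among themselves, the members differed widely in level. Per length, their mean FPKM over 6 libraries ran from 4.99 to 212 with a median of 32.3, and 72 of the 78 genes lay above 10.6 FPKM, the median of all genes tested. Mrpl12, a stalk protein that has also been found to bind the mitochondrial RNA polymerase, was the highest at 212 FPKM, followed by Mrpl33 at 188, Mrpl52 at 132, Mrpl13 at 124 and Mrps21 at 121 FPKM. The lowest levels per length were those of Mrpl1 at 4.99, Mrps25 at 7.20, Mrpl48 at 7.47, Mrpl14 at 7.61 and Mrpl4 at 8.35 FPKM. The proteins occur at about a single copy in each ribosome, with the stalk protein of Mrpl12 as a known exception, while the levels of their transcripts per length differed. FPKM divide by the length of the deposited gene models, which ran from 412 bases for Mrpl52 to 8707 bases for Mrpl3, and the low genes Mrpl14 and Mrpl4 have models of 7525 and 8356 bases. Whether the whole model is transcribed in these cells was not tested.

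**Figure D3:**
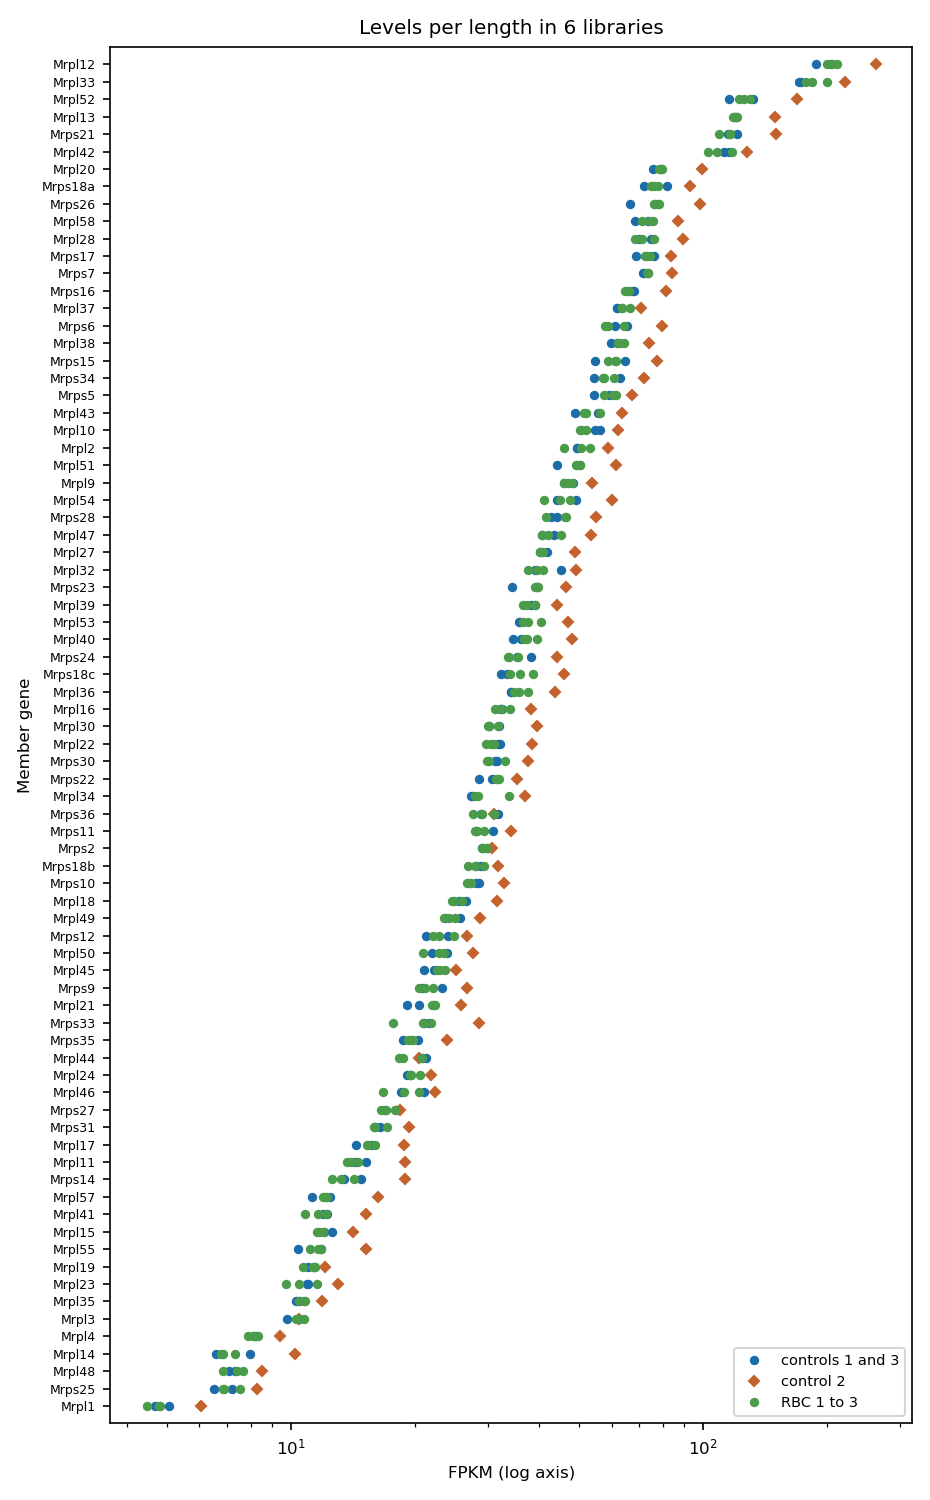
FPKM (x axis, log scale) of each of the 78 genes (y axis, ordered by mean) in each library, with control replicates 1 and 3 in blue, control replicate 2 as orange diamonds and the 3 RBC libraries in green. Means run from 4.99 for Mrpl1 to 212 for Mrpl12, and control replicate 2 is the highest point of 75 genes.

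Over the 5 libraries other than control replicate 2, the coefficient of variation had a median of 4.49% among the members and 4.83% among all genes tested. It ran from 0.962% for Mrpl13 to 9.41% for Mrpl34. Mrpl13 had 94.1 and 94.4 CPM in control replicates 1 and 3 and 95.1, 93.4 and 92.7 CPM in the RBC libraries. With control replicate 2 included, at 118 CPM for Mrpl13, the median over members was 9.57%, against 7.87% over all genes. The members' level is higher than that of all genes, and the difference in variation was not tested.

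The 30 large subunit genes counted as bacterial-type include those for the proteins around the peptidyl transferase centre, the stalk and the tunnel exit. Of these, 28 had a negative log2 fold change with all 6 libraries and 16 without control replicate 2, with medians of -0.10 and -0.003. In this group 0 genes were called with all 6 libraries and 1, Mrpl21, without control replicate 2. Mrpl3, which codes for a protein near the peptidyl transferase centre, had 85.2, 90.9 and 90.9 CPM in the controls and 90.8, 93.5 and 89.7 CPM in the RBC libraries. RBC replicate 2 was its highest library, and the log2 fold change was 0.04 ± 0.06 (SE) with all 6 libraries and 0.05 ± 0.04 without control replicate 2. Mrpl12 had 184, 257 and 201 CPM in the controls and 202, 195 and 207 CPM with red blood cells. Only control replicate 2 stood out, and the log2 fold change went from -0.09 ± 0.11 (SE) to 0.07 ± 0.04 without it.

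Mrpl11, which codes for the protein at the stalk base that contacts translation factors, had 46.2, 57.4 and 43.3 CPM in the controls and 42.5, 44.1 and 41.6 CPM in the RBC libraries, with overlap between the groups. Its log2 fold change was -0.20 ± 0.10 (SE) with all 6 libraries and -0.07 ± 0.06 without control replicate 2. Mrpl14 lies at the interface of the subunits, where the silencing factor Malsu1 binds during assembly. Its level was 49.5, 76.9 and 59.8 CPM in the controls and 51, 51.4 and 55.0 CPM in the RBC libraries. This gene had the most negative log2 fold change of the 78 with all 6 libraries, -0.24 ± 0.14 (SE), and -0.06 ± 0.06 without control replicate 2. Mrpl1, at the other stalk of the large subunit, had 23.3, 27.9 and 21.5 CPM and 20.6, 22.0 and 22.2 CPM, and Mrpl4, a protein of the tunnel wall, had 68.9, 78.8 and 68.2 CPM and 69.4, 65.7 and 67.5 CPM. In both genes the RBC libraries overlapped control replicates 1 and 3. Mrpl32, whose protein is matured by the m-AAA protease before it joins the ribosome, had 34.8, 37.8 and 30.1 CPM in the controls and 28.9, 31.3 and 30.3 CPM with red blood cells, a log2 fold change of -0.10 ± 0.07 (SE) without control replicate 2.

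Of the 21 large subunit genes counted as mitochondrion-specific, 20 had a negative log2 fold change with all 6 libraries and 10 without control replicate 2. The medians were -0.10 and 0.02. In both fits edgeR, DESeq2 and limma voom called 0 of them. In edgeR 0 had an unadjusted p under 0.05 with all 6 libraries and 1, Mrpl45, without control replicate 2. Mrpl37, a protein found only in mitochondrial ribosomes, had 92.7, 106 and 92.5 CPM in the controls and 95.1, 99.4 and 95 CPM in the RBC libraries. Every RBC library lay above control replicates 1 and 3 and below control replicate 2, with a log2 fold change of -0.01 ± 0.07 (SE) and 0.06 ± 0.04 without that control. Mrpl52 had 47.6, 69.4 and 54.4 CPM and 50.3, 51.8 and 53.6 CPM, and Mrpl54 had 25.9, 35.3 and 28.9 CPM and 24.2, 26.4 and 27.9 CPM. The log2 fold change of Mrpl54 was -0.20 ± 0.11 (SE) with all 6 libraries and -0.07 ± 0.07 without control replicate 2. Mrpl48, of the central protuberance, had 31.5, 37.7 and 32.5 CPM in the controls and 33.9, 32.7 and 30.4 CPM with red blood cells.

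Mrpl44, a protein with an RNase III fold, was an exception to the high level in control replicate 2. Its levels were 30.3, 29.2 and 29.5 CPM in the controls and 26.7, 29.6 and 26.1 CPM in the RBC libraries, with control replicate 1 the highest. The log2 fold change was -0.11 ± 0.07 (SE) with all 6 libraries and -0.12 ± 0.07 without control replicate 2, with an adjusted p of 0.32 in edgeR for the latter. Mrps30 and Mrps18a, which sit in the large subunit, were also highest in control replicate 2. Mrps30 had 50.3, 59.9 and 49.6 CPM in the controls and 47.7, 52.4 and 48.1 CPM in the RBC libraries, and Mrps18a had 62.2, 80.3 and 70.6 CPM and 67.1, 65.6 and 64.7 CPM. Both had a log2 fold change of -0.11 with all 6 libraries and -0.01 ± 0.05 (SE) without control replicate 2.

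The small subunit binds the messenger RNA and decodes it. Its 16 genes counted as bacterial-type all had a negative log2 fold change with all 6 libraries, and 9 did without control replicate 2. The medians were -0.12 and -0.02. In both fits edgeR, DESeq2 and limma voom called 0 of them, with 0 at an unadjusted p under 0.05. Mrps14, of the head of the subunit, had 33.0, 42.1 and 30.04 CPM in the controls and 29.4, 31.6 and 28.1 CPM in the RBC libraries, with a log2 fold change of -0.24 ± 0.12 (SE) that was -0.08 ± 0.07 without control replicate 2. Mrps24, whose protein lies where the messenger RNA enters, had 38.6, 44.7 and 35.8 CPM and 36.0, 34.2 and 33.9 CPM, and its log2 fold change went from -0.19 ± 0.09 (SE) to -0.10 ± 0.06. In both genes the RBC libraries overlapped control replicate 3. Mrps5, also at the entry channel, had 78.1, 96.2 and 84.8 CPM and 82.2, 88.1 and 86.6 CPM, with a log2 fold change of -0.01 ± 0.08 (SE) and 0.07 ± 0.05 without control replicate 2. Mrps21 had 58.4, 76.7 and 61.7 CPM in the controls and 55.7, 59.1 and 59.2 CPM with red blood cells. Mrps10 was lower in every RBC library, with 65.7, 76.7 and 66.8 CPM in the controls and 63.8, 63.2 and 62.2 CPM with red blood cells, and its adjusted p was 0.55 with all 6 libraries and 0.46 without control replicate 2 in edgeR.

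Among the 10 small subunit genes counted as mitochondrion-specific, 9 had a negative log2 fold change with all 6 libraries and 4 without control replicate 2. The medians were -0.07 and 0.005. Again 0 were called by the 3 tools in both fits, and 0 had an unadjusted p under 0.05. Mrps33 had 22.8, 30.1 and 22.1 CPM in the controls and 22.1, 23.1 and 18.7 CPM in the RBC libraries, with a log2 fold change of -0.23 ± 0.13 (SE) that was -0.08 ± 0.08 without control replicate 2. Mrps22 had 37.4, 43.1 and 34.8 CPM and 38.8, 38.3 and 38.5 CPM, with 0.01 ± 0.08 (SE) and 0.10 ± 0.06. Mrps25 had 39.5, 50.3 and 43.7 CPM in the controls and 41.6, 45.7 and 41.9 CPM with red blood cells. In these genes too the highest library was control replicate 2. Mrps36, which belongs to neither subunit, had 22.8, 22.3 and 20.7 CPM in the controls and 20.8, 22.3 and 19.8 CPM in the RBC libraries, with control replicate 1 the highest and a log2 fold change of -0.06 ± 0.08 (SE).

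The pattern common to the members was thus their level in control replicate 2. That library was the highest of the 6 for 75 of the 78 genes, where it was the highest for 35.2% of all genes tested. The exceptions were Mrpl44 and Mrps36, highest in control replicate 1, and Mrpl3, highest in RBC replicate 2. Divided by the mean of control replicates 1 and 3, the level in control replicate 2 had a median of 1.21 over the members and 1.002 over all genes. The ratio ran from 0.975 for Mrpl44 to 1.41 for Mrpl14, was above 1 for 77 genes (50.5% of all genes) and above 1.25 for 27 (8.19% of all genes). Its median was 1.21 in the large and 1.21 in the small subunit. No library was the lowest as regularly: control replicate 1 was the lowest for 26 genes, RBC replicate 3 for 21, RBC replicate 1 for 14, control replicate 3 for 11 and RBC replicate 2 for 6.

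**Figure D4:**
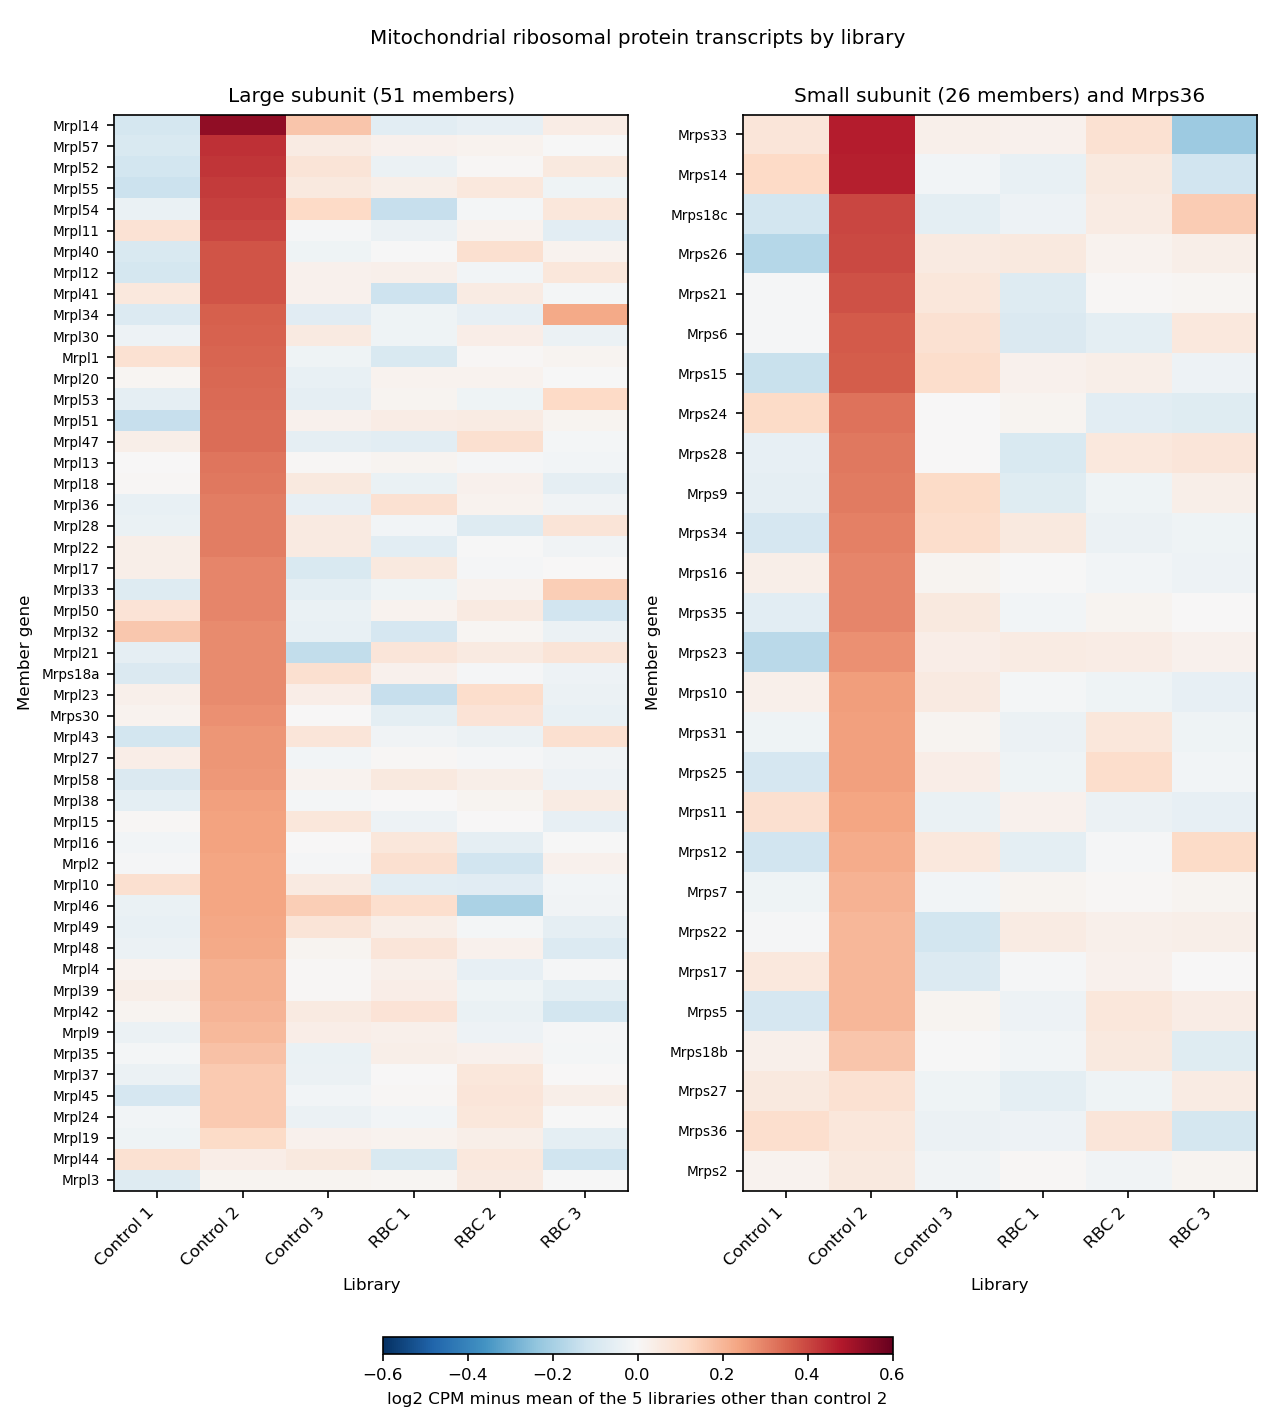
Log2 CPM of each gene (rows) in each library (columns) minus its mean over the 5 libraries other than control replicate 2, in colour from -0.6 to 0.6, for the large subunit on the left and for the small subunit with Mrps36 on the right. The column of control replicate 2 is red for nearly every gene, with a median of 0.28 over the 78 genes, and the medians of the other 5 libraries over the 78 genes lie between -0.024 and 0.019.

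The ratio of control replicate 2 to the other controls also moved with the length of the gene model over the whole table. Across 11193 genes, the log2 ratio had r = -0.58 with log2 length (Spearman rho = -0.66), and across the 78 members r = -0.28 (rho = -0.33); these points share the same 3 libraries and are no independent replicates. In 8 bins of equal gene number, the median ratio of all genes fell from 1.21 in the shortest bin to 0.796 in the longest. The members are short, with a median model of 1412.5 bases against 3585 for all genes, and 55 of the 78 fall in the 2 shortest bins. In the shortest bin the 44 members had a median ratio of 1.23, near the 1.21 of all genes there. The 10 members longer than 3585 bases had ratios of 1.03 to 1.41 with a median of 1.16, where all genes of that length had 0.901. Mrpl14, at 7525 bases, had the highest ratio of the 78. The part of length, or of any other property of that library, in the members' levels was not tested.

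**Figure D5:**
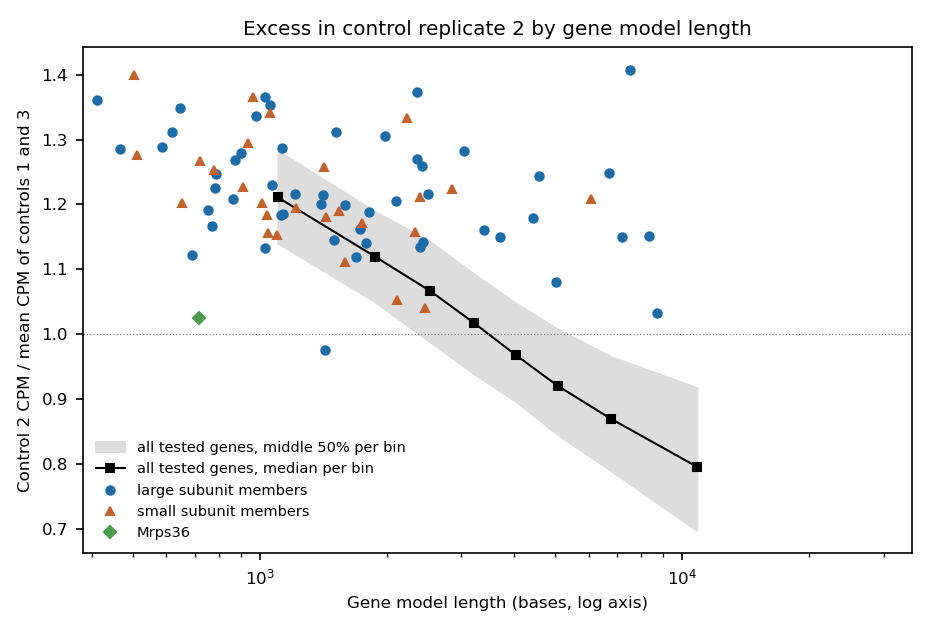
CPM in control replicate 2 divided by the mean of control replicates 1 and 3 (y axis) against gene model length in bases (x axis, log scale), for large subunit members (circles), small subunit members (triangles) and Mrps36 (diamond); black squares are the medians of all tested genes in 8 length bins and the band their middle 50%. The medians fall from 1.21 to 0.796, and the 10 members longer than 3585 bases lie at 1.03 to 1.41.

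Other gene groups stood higher in control replicate 2 too. The 76 cytosolic ribosomal protein genes had a median ratio of 1.27 and the 81 tested nuclear genes for respiratory chain subunits had 1.25, and control replicate 2 was the highest library for 98.7% and 95.1% of them. Their median log2 fold changes were -0.10 and -0.12 with all 6 libraries and 0.02 and -0.007 without control replicate 2, against -0.10 and -0.00062 in the members. None of the 3 groups had a called gene with all 6 libraries (edgeR: 0, with 0, 6 and 1 at an unadjusted p under 0.05 in cytosolic ribosomal protein, respiratory chain and mitochondrial ribosomal protein genes). In the fit without control replicate 2, 4 cytosolic ribosomal protein genes were called higher and 1 respiratory chain gene was called lower, beside the 1 member. The 4 are 5.26% of 76, near the 4.19% of all genes called higher. Of all 11297 genes tested, 426 were called lower. On the same libraries, limma voom called 4 cytosolic genes, Rpl3, Rpl30, Rpl34 and Rps9, and 1 respiratory chain gene, Atp5g3. DESeq2 called 2 of the cytosolic genes, Rpl3 and Rpl34, and 0 of the respiratory chain genes. The differences between these groups were not tested.

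The 5 remaining protein genes of the mitochondrial ribosome, whose symbols fall outside the rule, were tested, and 0 were called in either fit; their median ratio in control replicate 2 was 1.19. Dap3, a GTP-binding protein of the small subunit, had 86.3, 101 and 84.0 CPM in the controls and 84.4, 86.5 and 84.5 CPM in the RBC libraries. Aurkaip1 had 51.5, 69.2 and 55.1 CPM and 56.3, 51.3 and 53.4 CPM. Of 25 genes for ribosome assembly and ribosomal RNA maturation 24 were tested, and 0 were called in either fit. Dhx30, a helicase of that process, had 110, 104 and 111 CPM in the controls and 121, 114 and 118 CPM with red blood cells, with a log2 fold change of 0.12 ± 0.06 (SE) and an adjusted p of 0.54 in edgeR. Every RBC library of Dhx30 lay above every control, and the change did not pass the threshold.

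Of 16 mitochondrial translation factors 15 were tested, and 0 were called in either fit. Mtrf1l, a factor that ends translation, had 8.92, 9.41 and 7.57 CPM in the controls and 7, 7.26 and 6.61 CPM with red blood cells, a log2 fold change of -0.31 ± 0.11 (SE) with an adjusted p of 0.37 in edgeR. Its groups did not overlap, and it too was not called. Of the 17 aminoacyl-tRNA synthetase genes, which charge the mitochondrial tRNAs, 1 was highest in control replicate 2, and their median ratio was 1.01. None was called with all 6 libraries, and without control replicate 2 Tars2 was called higher. Tars2 had 61.7, 69.5 and 64.8 CPM in the controls and 71.6, 73.1 and 69.3 CPM with red blood cells, and its log2 fold change was 0.13 ± 0.06 (SE) with all 6 libraries and 0.17 ± 0.05 without control replicate 2, with adjusted p of 0.56 and 0.011 in edgeR.

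Of the 16 genes for mitochondrial transcription and RNA processing 0 were called in either fit. Of 9 regulators of mitochondrial biogenesis 0 were called with all 6 libraries, and without control replicate 2 Myc and Ppargc1a were called higher, where 4.19% of all genes were. Myc, a growth-promoting transcription factor, had 147, 165 and 151 CPM in the controls and 177, 166 and 174 CPM in the RBC libraries, so every RBC library lay above every control. Its log2 fold change was 0.16 ± 0.06 (SE) with all 6 libraries (adjusted p 0.43 in edgeR) and 0.21 ± 0.04 without control replicate 2 (adjusted p 2.7e-05). Ppargc1a, the coactivator that drives genes of mitochondrial biogenesis, had 30.1, 20.7 and 30.9 CPM in the controls and 33.7, 35.5 and 35.9 CPM with red blood cells. In this gene control replicate 2 was the lowest library, and the log2 fold change was 0.37 ± 0.13 (SE) with all 6 libraries (adjusted p 0.38 in edgeR) and 0.20 ± 0.06 without that library (adjusted p 0.031). Of 10 mitochondrial chaperones and proteases 0 were called with all 6 libraries. Without control replicate 2 Spg7, a subunit of the m-AAA protease, was called higher, with 39.3, 45.5 and 39.8 CPM in the controls and 43.6, 44.3 and 48.0 CPM in the RBC libraries, a log2 fold change of 0.20 ± 0.06 (SE) and an adjusted p of 0.018. Across these 7 lists, edgeR had 5 of 96 tested genes (5.21%) at an unadjusted p under 0.05 with all 6 libraries, against 9.99% of all genes, and DESeq2 and limma voom also called 0 genes there. In edgeR 4 of 96 (4.17%) were called without control replicate 2, all of them higher. Of all genes, 4.19% were called higher in that fit and 7.96% in either direction. Limma voom called the same 4 genes there, Tars2, Myc, Ppargc1a and Spg7, and DESeq2 called Myc alone. Of the 13 protein-coding genes of the mitochondrial genome, whose messages this ribosome translates, 0 were listed under their mt- symbols. They were therefore not analysed here.

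Upstream sequence was read from RefSeq, build GRCm38.p6, for the 69 of 78 members that had an entry. Each entry holds 250 bases before and 50 after the annotated start. The window was searched on both strands for the letters CCGGAAG, a core bound by ETS family factors, GCATGCGC, a core of the site of nuclear respiratory factor 1 (NRF1), AAGATGGCG, a core bound by YY1, and TATAAA. The ETS letters were found in 26 members (37.7%), against 21.7% of the tested genes with an entry and 9.93% of all 27025 entries. NRF1 letters were in 8 members (11.6%, against 6.36% and 3.05%) and YY1 letters also in 8 (11.6%, against 3.89% and 1.64%). TATAAA was in 5 members (7.25%, against 8.21% and 15.7%). In all, 36 members held letters of at least 1 of the first 3 motifs. The median ratio of control replicate 2 to the other controls was 1.24 in the 26 members with ETS letters and 1.19 in the 43 without. The median log2 fold change without that library was 0.04 and -0.01. Differences between members with and without ETS letters were not tested.

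The 250 bases before the start of 4 members are printed here, 5′ to 3′ on the strand of the gene, with whole matches in capitals. Mrpl33 had an unadjusted p under 0.05 without control replicate 2 and holds NRF1 letters on the opposite strand, beginning 12 bases before its start. It also holds ETS letters that begin 3 bases before the start and run past it, so they are not printed whole and not capitalised. Mrps26, with 63.8, 94.6 and 74.7 CPM in the controls and 74.9, 73.0 and 73.7 CPM in the RBC libraries, was among the genes highest in control replicate 2 and has ETS letters on the opposite strand, beginning 14 bases before its start. Mrpl3 was one of the 3 genes not highest in that library and also has ETS letters, beginning 19 bases before its start. Mrpl39 shows overlapping NRF1 matches on both strands, beginning 125 and 123 bases before its start; it had 95.1, 108 and 93.2 CPM in the controls and 95.2, 91.2 and 89.1 CPM with red blood cells. Mrps26 and Mrpl39 were chosen after their values and sequences were seen. The regions, all in GRCm38.p6, are chr5:31613701-31613950 on the plus strand for Mrpl33, chr2:130563507-130563756 on the plus strand for Mrps26, chr9:105053018-105053267 on the plus strand for Mrpl3 and chr16:84735245-84735494 on the minus strand for Mrpl39; the deposited counts used another build, GRCm39.
Mrpl33: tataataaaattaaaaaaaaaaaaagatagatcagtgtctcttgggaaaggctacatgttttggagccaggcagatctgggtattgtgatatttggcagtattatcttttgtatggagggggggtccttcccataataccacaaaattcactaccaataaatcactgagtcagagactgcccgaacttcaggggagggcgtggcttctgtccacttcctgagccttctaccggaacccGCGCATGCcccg
Mrps26: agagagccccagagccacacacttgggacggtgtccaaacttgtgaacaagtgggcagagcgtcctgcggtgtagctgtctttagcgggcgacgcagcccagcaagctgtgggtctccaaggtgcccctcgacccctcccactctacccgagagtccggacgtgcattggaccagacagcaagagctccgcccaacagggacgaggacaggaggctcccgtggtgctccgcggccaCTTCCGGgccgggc
Mrpl3: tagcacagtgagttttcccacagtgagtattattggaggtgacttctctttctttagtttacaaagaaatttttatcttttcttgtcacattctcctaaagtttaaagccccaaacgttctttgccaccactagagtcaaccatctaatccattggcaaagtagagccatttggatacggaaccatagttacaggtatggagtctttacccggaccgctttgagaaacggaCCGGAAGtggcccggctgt
Mrpl39: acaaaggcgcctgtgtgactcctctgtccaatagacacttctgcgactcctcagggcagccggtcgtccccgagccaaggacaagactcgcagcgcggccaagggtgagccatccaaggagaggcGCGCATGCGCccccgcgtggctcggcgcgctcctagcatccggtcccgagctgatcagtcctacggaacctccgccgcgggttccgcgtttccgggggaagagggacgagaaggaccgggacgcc
A match of letters is a description of the sequence and not a measured binding site.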

How the data were processed

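TRIzol extraction and a stranded mRNA library kit were used, per the labels' protocols. The authors deposited raw counts per gene symbol and FPKM values of the same reads. Per the submitters' processing notes the build was GRCm39; the aligner, counter, strand setting and gene models were not given in the sources used here, so reads shared with near-identical copies or antisense genes cannot be separated. Gene model length was computed from the ratio of both tables, with a largest relative departure between libraries of 3.4e-08 over 11556 genes.

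For the counts, edgeR 4.0.16 (R 4.3.3) was run as follows: filterByExpr (minimum count 10, minimum total 15; 99.96% of counts kept), TMM scaling, glmQLFit and glmQLFTest, two-sided, Benjamini-Hochberg adjustment over all genes tested, threshold 0.05. The 95% intervals use the standard error of that fit. FPKM were tested with limma 3.58.1 on log2(FPKM + 1), where a fold change understates that of low genes, keeping genes whose mean reached 1 FPKM in a group. Alternatives were RLE scaling, library size only, DESeq2 1.42.0, limma voom with and without library weights, no filter, 1 CPM in 3 libraries, a replicate block, leaving out each library, and offsets for length and GC content.

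Members and lists were chosen with earlier results of these data known. Named members are those called, the 6 largest rises and 6 largest falls with all 6 libraries, the 5 highest and 5 lowest by FPKM, and Mrps30, Mrps18a and Mrps36; each other list gave up to 3 genes in order of p. Any other named member was picked with its values in view. The pipeline was also run on simulated counts. In these no library stood apart as control replicate 2 did, so that run cannot tell how the fits handle such a library.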

Additional observations from a re-analysis of the deposited data

How the results depend on the processing

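With all 6 libraries the count of called members was 0 under every alternative other than leaving out control replicate 2, which gave 1; leaving out 1 library at a time gave 0 to 1. Without control replicate 2 the count of 1 became 0 with library size only, DESeq2, no filter or the replicate block, and was 0 to 3 on leaving out a further library: 3 without control replicate 3 (Mrpl51, Mrps23 and Mrps26) and 1 without RBC replicate 1 (Mrpl33 and not Mrpl21). Where this leaves 1 control, the lone sample is assumed to vary like the others. On FPKM the count was 0 under both alternatives. The members' median log2 fold change ranged from -0.15 (without control replicate 1) to -0.0006 (without control replicate 2), and was -0.016 with length, -0.016 with length and GC, and -0.017 with library weights. The cause of these shifts was not tested.

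Over all genes, 164 calls became 899 without control replicate 2, 340 with length, 366 with length and GC, 651 with weights, and 72, 62 and 79 without RBC replicates 1, 2 and 3. DESeq2 without control replicate 2 called 461 against 899.

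The labels do not say whether replicate numbers pair the libraries, and these values cannot tell. Same-numbered deviations had r of -0.03, 0.04 and 0.07, and differently numbered ones had r from -0.06 to 0.03. The replicate block called 126 genes and 0 members, with a member median of -0.094; without control replicate 2 it called 870 genes and 0 members.

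Of the 78 members, the sign turned against the fit of all 6 libraries for 27 with length, 29 with length and GC, 30 with weights and 34 without control replicate 2. Values follow for those among the 24 named members. With length and GC: Mrps36 0.053, Mrpl12 0.0090, Mrps5 0.065, Mrpl33 0.14, Mrpl52 0.015, Mrpl37 0.056, Mrpl3 -0.041 and Mrpl13 0.0037. With length: Mrpl52 0.013, Mrpl37 0.058, Mrps36 0.043, Mrpl33 0.13, Mrps5 0.057, Mrpl3 -0.049 and Mrpl12 0.013. With weights: Mrpl33 0.11, Mrpl37 0.050, Mrpl12 0.043, Mrps5 0.051 and Mrps25 0.020. Leaving out 1 library, log2 fold changes ran from -0.056 to 0.17 for Mrpl21, -0.036 to 0.096 for Mrpl45, -0.061 to 0.097 for Mrps22, -0.19 to 0.066 for Mrpl12, -0.12 to 0.017 for Mrpl48, -0.041 to 0.060 for Mrpl37, -0.13 to 0.050 for Mrps25, -0.079 to 0.12 for Mrpl33, -0.080 to 0.071 for Mrps5 and -0.25 to 0.024 for Mrpl52. In these fits no named member was called other than Mrpl21 without control replicate 2.

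Members had 185 to 4720 counts per library, and the number of libraries, 2 or 3 a group, limits the precision.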
